A study of Mus musculus with 10 samples.

Results

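The 41 genes described here encode the machinery of DNA replication and of mitosis. They are 20 S phase genes and 21 G2 and mitosis genes, listed by name and matched by symbol. All 41 matched 1 identifier each among the 56748 gene identifiers of the count tables, and all 41 had enough reads to be tested. The data were RNA-seq read counts per gene from mouse embryonic cortex at E12.5. There were 5 libraries labelled Emx2 KO and 5 labelled WT, numbered here in the order of deposition, and both genotypes carried the same tissue and stage labels. The knockout allele, the strain, the sex and the number of embryos behind each library were not stated in the labels. The labels do not say whether the libraries came from separate embryos, so the p-values below measure the spread between libraries. The comparison answers which transcripts differed in level when Emx2, a homeobox transcription factor of the early dorsal telencephalon, was disrupted.

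In the embryonic cortex, radial glia divide next to the ventricle. Their nuclei copy DNA away from the ventricular surface and return to it for mitosis, so that the tissue holds cells in every phase of the cycle. Before S phase, Cdc6 and Cdt1 load the ring of Mcm proteins onto replication origins, and Cdc45 and the GINS complex then turn the ring into an active helicase. E2F factors drive the transcription of many S phase genes, whereas Mybl2 and Foxm1 act later and drive genes of G2 and mitosis, often through a promoter element named CHR (cell cycle genes homology region) that lies close to CCAAT boxes.

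Library totals ran from 9720840 to 35674113 counts, and the members had between 197 and 45958 reads in a library. The libraries fell into 5 small ones of at most 14700549 counts (2 Emx2 KO and 3 WT) and 5 large ones of at least 24856930 counts (3 Emx2 KO and 2 WT). Within each size class, the Emx2 KO and WT libraries also carried different codes in their sample titles, which the labels do not explain. Values within a size class therefore cannot tell genotype from code. Emx2 itself lay between 94.6 and 146 CPM, counts scaled to the size of the library, in the Emx2 KO libraries and between 175 and 207 CPM in the WT libraries, with a log2 fold change of -0.59 ± 0.11 (SE) and an adjusted p of 0.00271 by edgeR's quasi-likelihood test. Emx2 transcripts were thus lower and not absent in the libraries labelled KO, with reads counted over the whole gene. CPM values here are scaled by the trimmed mean of M-values (TMM), and adjusted p-values are edgeR's, by the Benjamini-Hochberg method over the 18163 genes that were tested. A gene passed at an adjusted p under 0.05.

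Among the 41 members, 10 passed as higher in Emx2 KO, 2 passed as lower and 29 did not pass. Higher members made up 24.4% of the 41, against 12.9% of all genes tested, and lower members 4.88%, against 9.33%. The members were well expressed, and of the 8583 genes tested within the members' range of mean CPM, 21.3% were higher and 10.8% lower. The share of higher members therefore lay close to the share among genes of like abundance. The counts of members called in each role below are to be read beside these shares. Of the members, 6 had all 5 Emx2 KO libraries above all 5 WT libraries, a pattern seen in 9.63% of all genes tested, and 1 had all of them below, as in 7.06% of all genes. Every difference was small: log2 fold changes ran from -0.22 for Cenpf to 0.42 for Plk1.

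S phase and mitotic genes did not separate as classes in their median log2 fold change or in the direction of most calls. The ratio of their summed CPM, given further below, differed more between the genotypes. The S phase class had 4 members higher (20%) and 0 lower, with 16 that did not pass, and 5 with an unadjusted p under 0.05. The G2 and mitosis class had 6 higher (28.6%), 2 lower (9.52%) and 13 that did not pass, and 9 with an unadjusted p under 0.05. The median log2 fold change was 0.03 in each class, against -0.01 over all genes tested. It was 0.02 over the genes tested within the members' range of mean CPM, close to both classes. Within each class the genes went both ways, with 12 S phase members above zero and 8 below, and 11 G2 and mitosis members above zero and 10 below. In bulk tissue, fewer cells in a phase and less RNA per cell cannot be told apart.

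**Figure D1:**
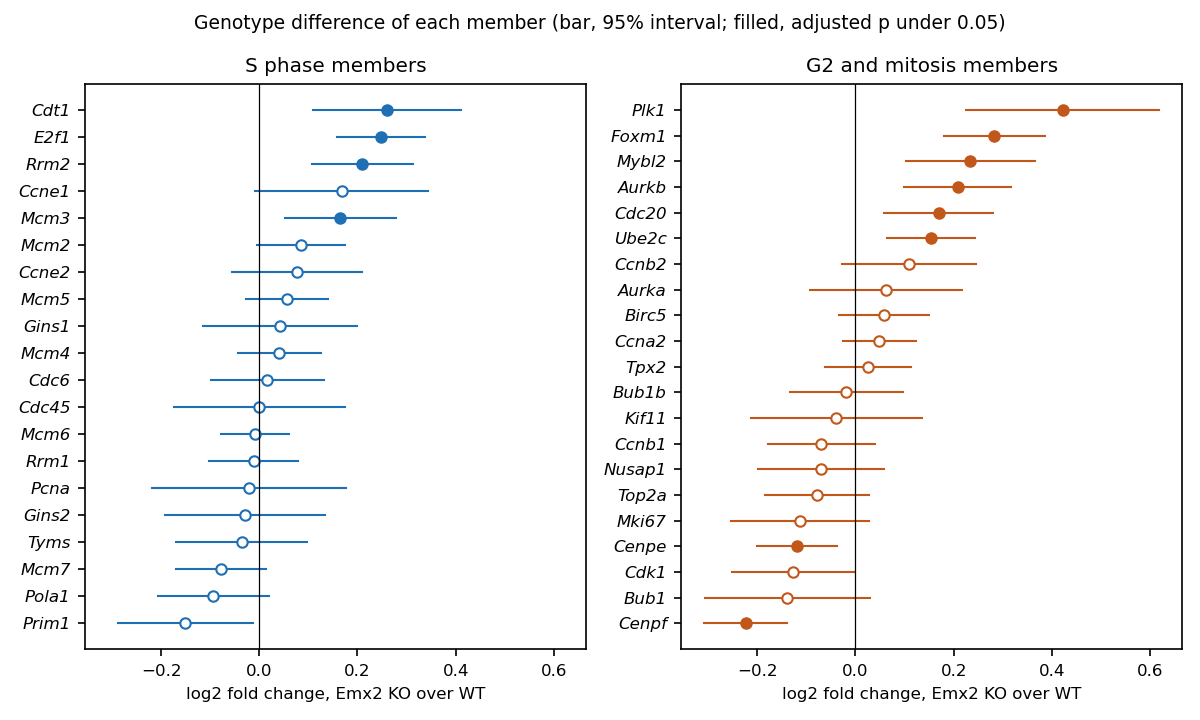
Log2 fold change of each of the 41 members between Emx2 KO and WT (x axis, log2 scale, Emx2 KO over WT), S phase members left and G2 and mitosis members right, with 95% intervals as bars (n = 5 libraries a group) and filled points where the adjusted p was under 0.05. Both panels hold genes on both sides of zero, and the highest and lowest values, 0.42 for Plk1 and -0.22 for Cenpf, are both G2 and mitosis members.

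The level of each class in each library was taken as the mean over its members of log2 CPM minus that member's mean over the 10 libraries. The S phase level was 0.0233 ± 0.0368 (SD, n = 5) in Emx2 KO and -0.0233 ± 0.0421 (SD, n = 5) in WT. The G2 and mitosis level was 0.0182 ± 0.0372 (SD, n = 5) in Emx2 KO and -0.0182 ± 0.0605 (SD, n = 5) in WT. For both classes the groups overlapped and the SD was nearly as large as the distance between the means or larger. The 2 lowest libraries in both classes were WT 2 and WT 3, with S phase levels of -0.0759 and -0.0612 and G2 and mitosis levels of -0.11 and -0.0399. WT 2 alone was the lowest library of all 10 for 10 of the 21 G2 and mitosis members and for 6 of the 20 S phase members. Without WT 2, 3 S phase members and 5 G2 and mitosis members passed as higher, and 2 G2 and mitosis members passed as lower. The S phase level minus the G2 and mitosis level was 0.00511 ± 0.0323 (SD, n = 5) in Emx2 KO and -0.00511 ± 0.0263 (SD, n = 5) in WT, far inside the spread between libraries. These levels were given no test.

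**Figure D2:**
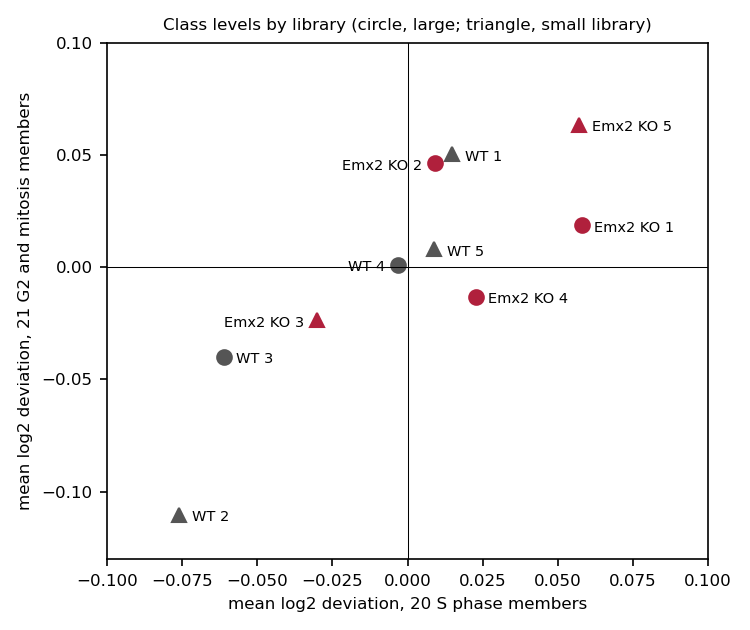
Level of the G2 and mitosis members (y axis, mean log2 deviation) against that of the S phase members (x axis, same unit) in each of the 10 libraries, Emx2 KO in red and WT in grey, circles for large and triangles for small libraries. Both classes tended to go up or down together, with WT 2 at the low end and Emx2 KO 5 at the high end, and the genotypes overlap. Not every library follows this, as Emx2 KO 4 had an S phase level of 0.0227 and a G2 and mitosis level of -0.0132.

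Summed over members, S phase transcripts came to 2472 ± 59.0 CPM (SD, n = 5) in Emx2 KO and 2383 ± 73.8 CPM (SD, n = 5) in WT. The G2 and mitosis sum was 4760 ± 193 CPM (SD, n = 5) in Emx2 KO and 4859 ± 181 CPM (SD, n = 5) in WT. The ratio of the second sum to the first was 1.81, 1.96, 1.97, 1.88 and 2.01 in Emx2 KO libraries 1 to 5 and 2.05, 2.00, 2.09, 2.06 and 1.99 in WT libraries 1 to 5. Its mean was 1.93 ± 0.0768 (SD, n = 5) in Emx2 KO and 2.04 ± 0.0438 (SD, n = 5) in WT. Emx2 KO libraries 1, 2, 3 and 4 lay below every WT library. The groups overlapped in this ratio, since Emx2 KO 5 lay above WT 2 and WT 5, and the ratio was given no test. The largest terms of the G2 and mitosis sum were Mki67, Top2a and Cenpf, with WT means of 1239, 815 and 463 CPM, and all 3 had lower means in Emx2 KO, of 1146, 771 and 397 CPM.

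Of the 6 replicative helicase genes, which encode the subunits of the Mcm ring, 1 passed. Mcm3 stood at 189, 201, 174, 175 and 177 CPM in Emx2 KO libraries 1 to 5 and at 177, 152, 159, 169 and 159 CPM in WT libraries 1 to 5. Of the 5 WT libraries, 4 lay below every Emx2 KO library, and WT 1 lay among the lower Emx2 KO values. Mcm3 was higher in Emx2 KO by a log2 fold change of 0.17 ± 0.0518 (SE), with an adjusted p of 0.0376. The other Mcm genes gave log2 fold changes of 0.09 for Mcm2, 0.06 for Mcm5, 0.04 for Mcm4, -0.01 for Mcm6 and -0.08 for Mcm7. None of these passed, and the Mcm6 interval, from -0.08 to 0.06, was the narrowest among the members. The 6 proteins work in one ring, yet per kilobase of exon their WT levels were unequal, from 30.8 ± 0.675 (SD, n = 5) CPM per kb for Mcm6 to 83.3 ± 3.24 (SD, n = 5) CPM per kb for Mcm7. Mcm7 shares 7.25% of its exon bases with Ap4m1 on the other strand.

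Of the 2 helicase loading genes, Cdt1 passed and Cdc6 did not. Cdt1, which brings the Mcm ring to origins and is destroyed once S phase begins, stood at 74.2, 69.3, 68.2, 72.9 and 70.2 CPM in Emx2 KO libraries 1 to 5. In WT libraries 1 to 5 it stood at 66.4, 62.4, 53.9, 51.2 and 63.6 CPM. The groups did not overlap, and WT 3 and WT 4 were lower than the other WT libraries. Cdt1 was higher by a log2 fold change of 0.26 ± 0.0692 (SE), with an adjusted p of 0.0174. It was 0.46 within the large libraries, where both fall, and 0.11 within the small ones, and without WT 3 the gene no longer passed. Cdc6, the ATPase that works beside Cdt1, ran from 37.1 to 43.3 CPM in Emx2 KO and from 39.7 to 43.4 CPM in WT, with a log2 fold change of 0.02 and a 95% interval from -0.10 to 0.13.

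None of the 3 helicase activation genes passed, nor did any of the 3 clamp and primase genes. Gins1 (0.04), Gins2 (-0.03) and Cdc45 (0.0004) all had log2 fold changes near zero. Their WT means of 18.9, 23.0 and 18.8 CPM were the lowest of the 41. Per kilobase they stood at 12.48 ± 1.13, 5.62 ± 0.301 and 5.37 ± 0.376 CPM per kb (SD, n = 5) in WT. On that measure Gins2 and Cdc45, but not Gins1, were among the scarcest members. The Cdc45 interval ran from -0.17 to 0.17. For Gins2, 67.3% of the exon bases overlap Gse1 on the opposite strand, and no source states whether the counting used strand, so its level is uncertain. Pcna, the sliding clamp of the DNA polymerases, had a log2 fold change of -0.02 with an interval from -0.22 to 0.18, the widest of the 41. Pola1, the catalytic subunit of DNA polymerase alpha, and Prim1, the primase that lays down RNA primers, had log2 fold changes of -0.09 and -0.15. Prim1 had an interval from -0.29 to -0.01 and an adjusted p of 0.112. Pcna also has the named pseudogenes Pcna-ps1 and Pcna-ps2, and reads from such copies could have been split between them.

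Nucleotide supply was uneven. Rrm2, the small subunit of ribonucleotide reductase and the one whose level follows the cell cycle, was at 354, 351, 359, 332 and 337 CPM in Emx2 KO libraries 1 to 5 and at 326, 271, 295, 305 and 302 CPM in WT libraries 1 to 5. All Emx2 KO libraries lay above all WT libraries, with WT 2 the lowest. Rrm2 thus had a log2 fold change of 0.21 ± 0.0474 (SE), with an adjusted p of 0.0072. Per kilobase, Rrm2 had the highest WT level of the S phase class, 108 ± 7.15 CPM per kb (SD, n = 5). Rrm1, the large subunit of the same enzyme, was lower per kilobase of annotated exon at 22.3 ± 1.03 CPM per kb (SD, n = 5). Its annotated exons hold 11012 bases and its longest transcript 5475, which lowers that value. Rrm1 had a log2 fold change of -0.01, with an interval from -0.10 to 0.08. Tyms, thymidylate synthase, had a log2 fold change of -0.04, with an interval from -0.17 to 0.10, and has a named pseudogene, Tyms-ps.

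All 3 S phase entry genes had values above zero, and 1 passed. E2f1, the transcription factor that switches on S phase genes, was at 81.6, 80.7, 73.6, 79.8 and 77.6 CPM in Emx2 KO libraries 1 to 5. It was at 67.5, 64.7, 63.5, 67.4 and 68.7 CPM in WT libraries 1 to 5. The lowest Emx2 KO library, number 3, still lay above the highest WT library. E2f1 was higher by a log2 fold change of 0.25 ± 0.0413 (SE), and the adjusted p of 0.00109 was the smallest of the 41 members. Ccne1 and Ccne2 encode the E-type cyclins, which activate Cdk2 at the start of S phase. Ccne1 had a log2 fold change of 0.17 ± 0.0809 (SE) and an adjusted p of 0.168, with Emx2 KO 1 at 40.6 CPM above all others. Ccne2 had a log2 fold change of 0.08 and an adjusted p of 0.424, and 17.4% of its exon bases overlap Ints8 on the other strand.

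Promoter sequence was read from the RefSeq promoter table of build GRCm38.p6, which held 33 of the 41 members, 16 of the S phase class and 17 of the G2 and mitosis class. The other members are Mcm4, Gins1, Gins2, Ccne2, Ccna2, Aurkb, Tpx2 and Foxm1. In the 250 bases before the start, 3 motifs were searched on both strands: an E2F site (TTTGGCGC, TTTCCCGC, TTTGCCGC or TTTCGCGC), the CHR element TTTGAA and the CCAAT box. An E2F site was found in 31.2% of the S phase members and 5.88% of the G2 and mitosis members, against 2.16% of all 27033 genes in the table. Among S phase members the E2F site stood before Mcm5, Mcm6, Mcm7, Cdc6 and Pola1, none of which passed, and before none of the 8 higher members with an entry. The windows below are those of the 3 S phase members with the smallest p that held a motif outside annotated exons, and of Mcm6, which was chosen after the motifs were seen because it shows the E2F site. Prim1, with a smaller p than Mcm2, held a CCAAT box only within an annotated exon and has no window here. The windows are printed 5′ to 3′ on the gene's strand, with motifs in capitals, and ATTGG is CCAAT read on the other strand.
Rrm2 (chr12:24708131-24708240, plus strand, CCAAT box): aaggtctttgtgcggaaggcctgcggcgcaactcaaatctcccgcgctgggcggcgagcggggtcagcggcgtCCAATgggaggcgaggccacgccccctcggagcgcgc
Mcm3 (chr1:20820320-20820429, minus strand, 3 CCAAT boxes): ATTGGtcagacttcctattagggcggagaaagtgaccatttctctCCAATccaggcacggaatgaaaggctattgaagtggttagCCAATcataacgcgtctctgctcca
Mcm2 (chr6:88898781-88898890, minus strand, CHR element): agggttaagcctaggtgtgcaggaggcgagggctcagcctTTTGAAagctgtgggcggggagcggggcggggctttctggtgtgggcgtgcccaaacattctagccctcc
Mcm6 (chr1:128359706-128359815, minus strand, E2F sites and CCAAT boxes): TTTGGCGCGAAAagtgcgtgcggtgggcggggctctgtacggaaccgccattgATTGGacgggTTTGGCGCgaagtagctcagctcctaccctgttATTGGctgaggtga

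In the Mcm6 window the first run in capitals holds an E2F site on each strand, which overlap. Mcm6, with E2F sites in view, had a log2 fold change of -0.01. Rrm2 and Mcm3, with CCAAT boxes alone among the 3 motifs, passed as higher. Rrm2 and Mcm3 were picked by their small p and Mcm6 for its E2F sites, so these windows cannot relate motif to call.

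In the G2 and mitosis class, both transcription factors passed. Foxm1, a forkhead factor that drives mitotic genes, was at 261, 270.2, 255, 259.7 and 275 CPM in Emx2 KO libraries 1 to 5 and at 232, 197, 228, 219.8 and 208 CPM in WT libraries 1 to 5. The groups did not overlap, and WT 2 was the lowest library. Foxm1 was higher by a log2 fold change of 0.28 ± 0.0475 (SE), with an adjusted p of 0.00114. Mybl2, the MYB protein that joins the MuvB complex to switch on mitotic genes before Foxm1, stood at 39.2, 38.3, 38.0, 37.4 and 39.0 CPM in Emx2 KO libraries 1 to 5. In WT libraries 1 to 5 it stood at 37.1, 29.2, 32.3, 31.7 and 33.1 CPM. WT 1 came within 1 CPM of the lowest Emx2 KO library and the groups did not overlap. Mybl2 was higher by a log2 fold change of 0.23 ± 0.0607 (SE), with an adjusted p of 0.0153.

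All 5 mitotic kinase genes and their partners had values above zero, and 2 passed. Plk1, the polo-like kinase that drives entry into mitosis and spindle assembly, was at 126, 126, 99.5, 109.6 and 98.6 CPM in Emx2 KO libraries 1 to 5. It was at 98.7, 80.2, 78.8, 75.9 and 85.6 CPM in WT libraries 1 to 5. The groups met at their edges, since WT 1 lay just above Emx2 KO 5. Its log2 fold change of 0.42 ± 0.09 (SE), with an adjusted p of 0.0059, was the largest of the 41 members in either direction. The large libraries alone gave 0.64 and the small ones 0.17, and in each of these subsets the genotypes carried different title codes.

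Aurkb, the kinase of the chromosomal passenger complex that corrects faulty attachments of chromosomes to the spindle, was at 115, 119.9, 103, 111 and 112 CPM in Emx2 KO libraries 1 to 5. Its WT values were 104, 89.6, 94.4, 97.9 and 101 CPM in libraries 1 to 5. WT 1 lay just above Emx2 KO 3, and the other libraries were apart. Aurkb was higher by a log2 fold change of 0.21 ± 0.0504 (SE), with an adjusted p of 0.0108. Birc5, a partner of Aurkb in the same complex, had a log2 fold change of 0.06, with an interval from -0.03 to 0.15. Aurka, the kinase of the spindle poles, and Tpx2, which activates it, had log2 fold changes of 0.06 and 0.03. Neither passed, and the Aurka interval ran from -0.09 to 0.22.

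None of the 4 cyclin and CDK genes passed. Cdk1, the kinase that starts mitosis, ran from 70.2 to 77.5 CPM in Emx2 KO and from 72.4 to 87.2 CPM in WT. WT 3 and WT 4 lay inside the Emx2 KO range and WT 1, WT 2 and WT 5 lay above it. Its log2 fold change was -0.13 ± 0.0572 (SE), with an adjusted p of 0.135. Its cyclins went both ways, with log2 fold changes of 0.11 for Ccnb2, 0.05 for Ccna2 and -0.07 for Ccnb1. Ccnb1 and Ccnb2 each have a named pseudogene, and 12.49% of the exon bases of Ccna2 overlap Exosc9 on the other strand.

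Of the 4 genes of the spindle checkpoint and of the anaphase-promoting complex (APC/C), the ligase that ends mitosis, 2 passed and both belong to the APC/C step. Cdc20, which activates the APC/C, was at 202, 192, 179, 186 and 181 CPM in Emx2 KO libraries 1 to 5. In WT libraries 1 to 5 it was at 179.7, 153, 163, 163 and 179 CPM. WT 1 lay just above the lowest Emx2 KO library, number 3. Cdc20 was higher by a log2 fold change of 0.17 ± 0.0513 (SE), with an adjusted p of 0.0323.

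Ube2c, the ubiquitin-conjugating enzyme that works with the APC/C, was at 161, 154, 148.6, 154 and 160.0 CPM in Emx2 KO libraries 1 to 5. In WT libraries 1 to 5 it was at 144, 135, 142, 131 and 147 CPM. The groups did not overlap, with Emx2 KO 3 and WT 5 as the nearest libraries. Ube2c was higher by a log2 fold change of 0.15 ± 0.0412 (SE), with an adjusted p of 0.0183, and 22.8% of the Ube2c exon bases overlap Tnnc2 on the other strand. The checkpoint kinase Bub1 and its relative Bub1b, both of which hold the APC/C back until chromosomes are attached, had log2 fold changes of -0.14 and -0.02. Neither passed, and the Bub1 interval ran from -0.31 to 0.03.

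All 4 spindle and kinetochore genes had values below zero, and 2 passed as lower. Of all genes tested 9.33% were lower, and of those within the members' range of mean CPM 10.8%. The shared sign was lost when GC share and transcript length were fitted out, as given further below. Cenpf, a very large protein of the kinetochore and nuclear matrix, was at 384, 387, 387, 409.5 and 417 CPM in Emx2 KO libraries 1 to 5 and at 487, 460.1, 456, 448 and 466 CPM in WT libraries 1 to 5. Every Emx2 KO library lay below every WT library. The log2 fold change was -0.22 ± 0.0388 (SE), with an adjusted p of 0.00142. Cenpe, the kinesin that carries chromosomes to the middle of the spindle, was at 153, 158, 152, 158 and 166 CPM in Emx2 KO libraries 1 to 5. It was at 169, 167, 175, 179 and 165 CPM in WT libraries 1 to 5. Emx2 KO 5 lay just above WT 5, and the other libraries were apart. The log2 fold change was -0.12 ± 0.0376 (SE), with an adjusted p of 0.0399. Nusap1, which bundles spindle microtubules, and Kif11, the motor that pushes the poles apart, had log2 fold changes of -0.07 and -0.04 and did not pass.

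Neither of the mitotic chromosome genes passed, although they were among the most abundant members. Mki67, the proliferation antigen that coats mitotic chromosomes, had the highest WT level of the 41 per kilobase of annotated exon, at 123 ± 8.01 CPM per kb (SD, n = 5). Top2a, the topoisomerase that untangles sister chromatids, stood at 90.4 ± 3.09 CPM per kb (SD, n = 5). This ranking depends on the length used. The annotated exons of Top2a hold 9013 bases and its longest transcript 5221, whereas Mki67 has 10061 by either length. Mki67 ran from 1028 to 1275 CPM in Emx2 KO and from 1151 to 1314 CPM in WT, with a log2 fold change of -0.11 and an interval from -0.25 to 0.03. Top2a had a log2 fold change of -0.08 and an interval from -0.18 to 0.03. Their adjusted p-values were 0.248 and 0.292 by edgeR.

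**Figure D3:**
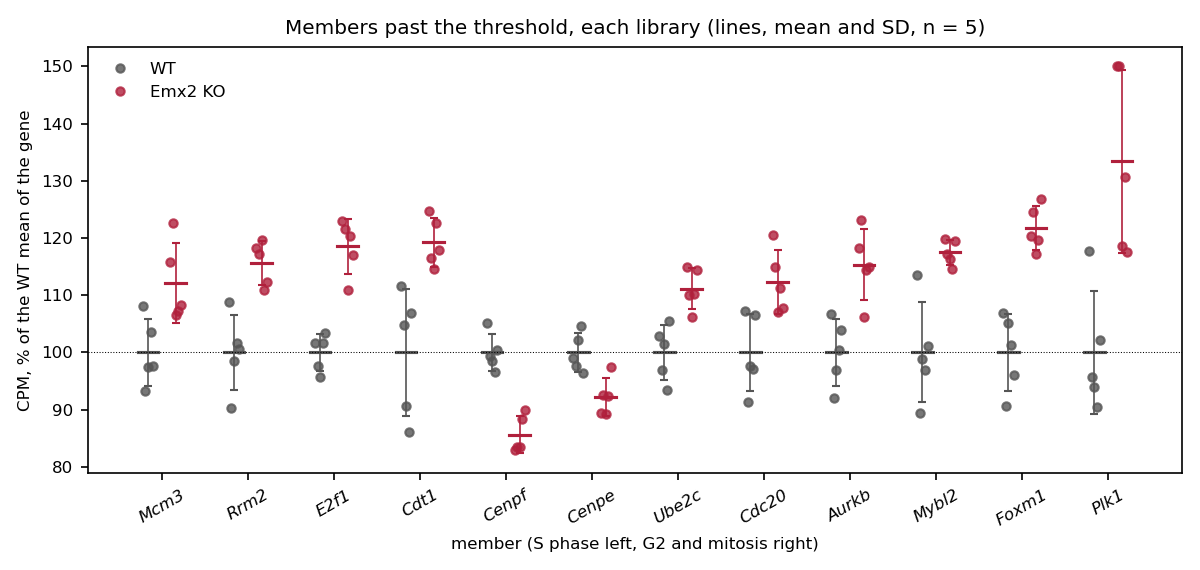
CPM of the 12 members past the threshold in each library, as a percentage of that gene's WT mean (y axis), WT in grey and Emx2 KO in red, with lines for the mean and SD (n = 5 libraries a group). The higher members have Emx2 KO means between 111% and 133% of WT, and the lower members, Cenpf and Cenpe, have means of 85.6% and 92.2%.

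Among the G2 and mitosis members in the promoter table, the CHR element was found in 41.2%, against 2 of the 16 S phase members and 18.3% of all genes in the table. The CCAAT box was found in 82.4% of the G2 and mitosis members, in 68.8% of the S phase members and in 37.5% of all genes. Of the 8 higher members with an entry, 2 (Cdc20 and Ube2c) had the CHR element and 5 had a CCAAT box, and both lower members, Cenpe and Cenpf, had a CCAAT box and no CHR element. The windows below are those of the 3 G2 and mitosis members with the smallest p that held a motif outside annotated exons, and of Cdk1, which was chosen after the motifs were seen because it holds all 3. The Plk1 window is short because bases that lie in annotated exons were left out.
Cenpf (chr1:189688109-189688218, minus strand, 2 CCAAT boxes): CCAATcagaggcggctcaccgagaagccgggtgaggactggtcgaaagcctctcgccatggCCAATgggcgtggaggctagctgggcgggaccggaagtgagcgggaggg
Plk1 (chr7:122159402-122159434, plus strand, CCAAT box): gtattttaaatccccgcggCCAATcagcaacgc
Ube2c (chr2:164769743-164769852, plus strand, 4 CCAAT boxes): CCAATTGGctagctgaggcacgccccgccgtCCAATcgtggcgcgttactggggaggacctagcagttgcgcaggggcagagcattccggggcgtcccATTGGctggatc
Cdk1 (chr10:69352939-69353048, minus strand, E2F site, CHR element and 2 CCAAT boxes): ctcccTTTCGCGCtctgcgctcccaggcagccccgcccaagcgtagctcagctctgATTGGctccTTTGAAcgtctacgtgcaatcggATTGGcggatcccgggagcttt

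In the Ube2c window the first run in capitals is a pair of overlapping CCAAT boxes, 1 on each strand. Cenpf, Plk1 and Ube2c all show CCAAT boxes, and they went in different directions: Plk1 and Ube2c were higher in Emx2 KO and Cenpf was lower. A match to these letters describes the window and shows no binding, and a window without a match says only that the letters are not there.

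Of 44 other replication genes, 6 were higher and 2 lower. For this list and the gene and marker lists that follow, the shares over all genes tested were 12.9% higher and 9.33% lower. Within the members' range of mean CPM they were 21.3% and 10.8%, though some genes of these lists lie outside that range. No list was tested as a set. Among them, Pold1, the catalytic subunit of DNA polymerase delta, rose by a log2 fold change of 0.26 (adjusted p 0.00211 by edgeR). Chaf1a, which deposits histones behind the fork, rose by 0.22 (adjusted p 0.00248), and Uhrf1, which keeps DNA methylation, by 0.20 (adjusted p 0.00808). Wdhd1 and Pole2, both fork proteins, had log2 fold changes of -0.15 and -0.34 and passed as lower. The median over the 44 was -0.02, beside 0.03 for the S phase members.

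Of 27 other kinetochore and checkpoint genes, 1 was higher and 4 were lower. Incenp, the scaffold of the complex that holds Aurkb and Birc5, rose by a log2 fold change of 0.23 (adjusted p 0.000444 by edgeR), with no overlap between groups. Knl1 (-0.23), Hjurp (-0.39) and Ttk (-0.20), which build the kinetochore or signal from it, passed as lower. Of 26 spindle motor and cytokinesis genes, 4 were higher and 3 lower. Cit, Kif18b and Gtse1 rose by log2 fold changes of 0.28, 0.22 and 0.24, and Kif20b, Aspm and Kif23 had log2 fold changes of -0.28, -0.23 and -0.17. Aspm, a spindle pole protein of cortical progenitors, was at 229 ± 12.45 CPM in Emx2 KO and 269 ± 7.47 CPM in WT (SD, n = 5), with no overlap.

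Of 23 condensin, cohesin and APC/C regulators, 3 were higher and 1 lower. The phosphatases Cdc25b and Cdc25a, which activate cyclin-dependent kinases, rose by log2 fold changes of 0.32 and 0.18, and Fzr1, the APC/C activator of G1, by 0.31. Mastl, a kinase that protects mitotic phosphorylation, had a log2 fold change of -0.15 and passed as lower. Of 16 E2F, pocket protein and DREAM complex genes tested, 3 were higher and 0 lower, with 1 further gene of the list, Lin54, not matched by symbol. The 3 were E2f2 (0.38), E2f8 (0.34) and E2f4 (0.16), which stand beside the member E2f1 (0.25). The other 13 did not pass, among them E2f3, E2f5, E2f6 and E2f7. Of the 16, 9 lay above zero, with a median log2 fold change of 0.02.

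Markers of the cell types in the dissected tissue differed between the same libraries. Of 12 radial glia markers, 9 were higher in Emx2 KO and 0 lower, and their summed level ran from 4021 to 4610 CPM in Emx2 KO and from 3415 to 3499 CPM in WT. Of 8 intermediate progenitor markers, 5 were higher and 1 lower, with sums from 1212 to 1547 CPM in Emx2 KO and from 936 to 1230 CPM in WT. Of 12 markers of postmitotic neurons, which have left the cycle, 6 were higher and 0 lower, with sums from 4859 to 6166 CPM and from 3325 to 5080 CPM. Of 8 choroid plexus markers, 6 were lower, with sums from 57.6 to 93.1 CPM in Emx2 KO and from 254 to 307 CPM in WT. No erythroid, endothelial or microglial marker passed, though each of these lists leaned one way. All 10 erythroid markers had log2 fold changes above zero (median 0.36). All 8 endothelial and all 8 microglial markers lay below zero (medians -0.25 and -0.21). Of 8 markers of meninges, 2 were lower, and no marker of any list was at 0 in any library. Pax6 and Tbr1, which mark progenitors and neurons of the dorsal cortex, averaged 289 and 431 CPM in Emx2 KO and 228 and 270.2 CPM in WT, so the labelled tissue was represented in both genotypes. Other markers of those lists went the other way without passing. Hes1, Vim and Neurod6 averaged 65.3, 812 and 230 CPM in Emx2 KO and 80.7, 815 and 283 CPM in WT. The part of cell makeup in the members' differences was not tested.

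The members' differences ran with the base composition of their transcripts. Across the 41 members, the log2 fold change and the GC share of the longest annotated transcript had a Spearman correlation of 0.70 (Pearson 0.70). It was 0.85 over the 21 G2 and mitosis members and 0.43 over the 20 S phase members. Over the 15791 genes tested with a mean of at least 1 CPM, it was 0.33. The points are genes measured in the same 10 libraries, so these values are descriptions. The 10 higher members had a median GC share of 55.6%, the 2 lower members 43.1% and the other 29 46.9%.

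Every member with a GC share above 54% was higher in Emx2 KO. These were Cdt1, E2f1, Cdc20, Plk1, Ube2c, Foxm1 and Mybl2, with 6 between 54% and 58% and 1 between 58% and 62%. In those ranges 24.2% and 32.3% of genes tested with a mean of at least 1 CPM were higher. Of the 9 members between 42% and 46%, 2 were lower (Cenpe and Cenpf) and 0 higher. There 14.1% of genes with a mean of at least 1 CPM were lower and 5.64% higher. Rrm2 departed from this order, with a GC share of 46.0% and a higher level in Emx2 KO, and Mcm7 and Gins2 departed the other way, at 53.4% each with log2 fold changes of -0.08 and -0.03. Cenpf, Mki67 and Cenpe have the longest transcripts of the members, at 11130, 10061 and 7910 bases, and the median was 9520 bases for the 2 lower members and 2447.5 bases for the 10 higher ones.

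**Figure D4:**
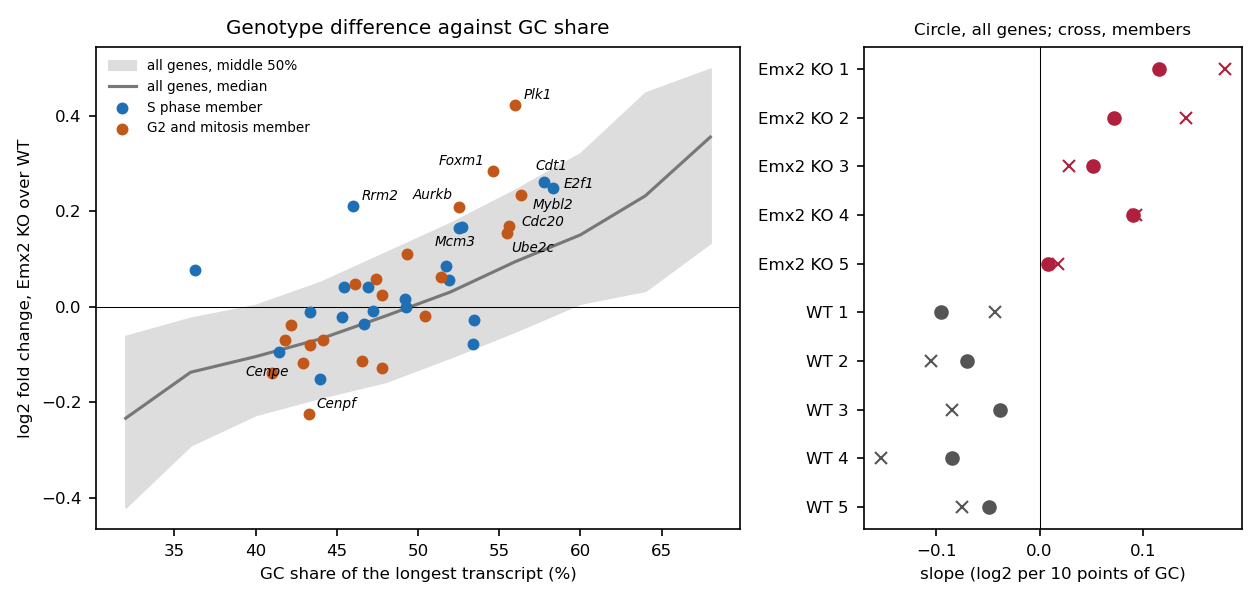
Left, log2 fold change of each member (y axis, Emx2 KO over WT) against the GC share of its longest transcript (x axis, percent), over the median and middle 50% of all genes tested with a mean of at least 1 CPM. Right, slope against GC of each library's log2 deviation from the gene means over the 10 libraries (x axis, log2 per 10 percentage points). Circles are for all genes and crosses for members. Slopes are positive in all 5 Emx2 KO libraries and negative in all 5 WT libraries.

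Over all genes, the libraries of the 2 genotypes tilted in opposite directions with GC share. Each library's log2 level was taken as the deviation from the gene's mean over the 10 libraries. In the Emx2 KO libraries the slope of these deviations against GC share ran from 0.0083 to 0.116 log2 units per 10 percentage points. In the WT libraries it ran from -0.0959 to -0.0385. The slope was nearest to flat in Emx2 KO 5. Such slopes balance out over the 10 libraries, so a sign gives a library's tilt relative to the others. Because the slope had one sign in every Emx2 KO library and the other in every WT library, genotype and the GC slope of the libraries cannot be told apart. With GC share and transcript length fitted out of each library, which was added after seeing the data, 1 S phase member was higher (Rrm2, log2 fold change 0.27). In the same fit 3 G2 and mitosis members were higher (Aurkb 0.21, Plk1 0.34 and Foxm1 0.20) and 0 members were lower. Cenpf moved from -0.22 to -0.11, E2f1 from 0.25 to 0.12 and Cdt1 from 0.26 to 0.14 in that fit, and none of the 3 passed. Of the other spindle and kinetochore members, Cenpe moved from -0.12 to -0.06 and did not pass. Kif11 and Nusap1 moved from -0.04 and -0.07 to 0.03 each. The correction left a Spearman correlation with GC of 0.66 over the G2 and mitosis members and of 0.003 over the S phase members.

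The members' calls also differed in how well they held when libraries were split. All 12 passed members kept their direction within the large libraries, within the small libraries, and within each of the 2 title codes that hold both genotypes in pairs. These subsets are drawn from the libraries on which the 12 were called, so this shared direction is a description only. The codes stand at the end of the sample titles and are not explained by the labels. Under code 241022 the Emx2 KO libraries were large and the WT libraries small, and under code 14922 the sizes were the other way round. Within a code, genotype and library size therefore cannot be told apart. Within a size class, the genotypes shared no code, so genotype and code cannot be told apart there. Plk1 had a log2 fold change of 0.50 under code 241022 and 0.36 under code 14922, and Foxm1 had 0.32 and 0.24. No member passed the test of a difference in genotype effect between the codes, for which the smallest adjusted p was 0.514 (Aurka, 0.24 under 241022 and -0.13 under 14922) while 322 of 19645 genes tested passed.

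Scaling set the zero line for the classes. With upper-quartile scaling the median log2 fold change was -0.01 in both classes, and with total counts it was -0.02 in both, so that the small positive medians changed sign. Over all genes tested, higher and lower calls were 2345 and 1694 with TMM, 1899 and 2245 with upper-quartile scaling, and 1786 and 2464 with total counts. Relative to the median of all genes, the S phase median stayed 0.04 above and the G2 and mitosis median 0.03 above under each of these scalings. With TMM, genes within the members' range of mean CPM had a median of 0.02, so genes of like abundance shared most of this offset. Under both, 3 S phase and 4 G2 and mitosis members passed as higher, with Mcm3, Cdc20 and Ube2c no longer passing. Mcm3 and Cdc20 passed in 10 and 11 of the 25 alternatives tried and Cenpe in 12, whereas Plk1 passed in 23, Rrm2, Aurkb and Foxm1 in 22, Cdt1, E2f1, Cenpf and Mybl2 in 21, and Ube2c in 18.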

How the data were processed

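Total RNA of embryonic cortex was sequenced in 10 libraries, 5 Emx2 KO and 5 WT. The authors deposited whole-number counts of reads per gene. The submitters' processing notes name featureCounts 1.6.3-p1, STAR 2.7.8a and bcl2fastq 2.20 as tools and GRCm39 and rn6 as builds, and the strand setting used is not stated there. Counts were tested with edgeR 4.0.16 in R 4.3.3 (TMM scaling, filterByExpr with a minimum count of 10, quasi-likelihood F test with robust estimation, Benjamini-Hochberg adjustment, threshold 0.05), with genotype as the only term and all 10 libraries in the fit. Standard errors and 95% intervals came from that fit. The test was checked on simulated counts. In each of the 20 pairs of replicates, libraries differed by more than counting noise (chi-square averaging 9.06 to 23.7 over genes).

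Exon lengths and overlaps, and the GC share and length of the longest transcript, came from GENCODE gene models on GRCm38, matched by gene identifier, and 97.96% of genes tested had a GC value. Exon length counted every annotated exon base of a gene once, so it can exceed the length of the longest transcript. Symbols were found for 52073 of 56748 identifiers. The members and lists were chosen with earlier results of these data known. All 41 members are named, along with up to 3 genes in each direction with the smallest p per further list, and values by library are printed for members past the threshold. For each class the promoter windows are those of the 3 members with the smallest p that held a motif outside the exons of those gene models. The condition on exons, which passed over Prim1, was added to the rule. Alternatives covered scaling, filtering, DESeq2 1.42.0, limma-voom (limma 3.58.1), blocks, subsets and leaving out each library. Fits without robust estimation and with a correction for GC and length were added after seeing the data.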

Additional observations from a re-analysis of the deposited data

Results flagged for a closer look

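In 8 of the 82 groups of 5 libraries examined (41 members in each genotype), 1 library stood apart from the other 4, judged by its gap to the nearest library as a share of the group's range. Chance alone gives about 1 such group in 20.

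Among S phase members, Mcm5 was highest in WT 5 at 159 CPM, with the next library at 149.9 CPM and a gap share of 0.7205. Pcna was lowest in Emx2 KO 2 at 115 CPM, with the next at 139 CPM and a gap share of 0.7448. Emx2 KO 3 was the lowest of its group for Cdc6, at 37.1 CPM against 41.7 CPM next (gap share 0.7483), and for Rrm1, at 227 CPM against 245 CPM next (gap share 0.7608). Gins2 was highest in Emx2 KO 1 at 26.5 CPM, with the next at 22.1 CPM and a gap share of 0.7718. Cdc45 was lowest in WT 1 at 16.6 CPM, with the next at 19.0 CPM and a gap share of 0.7109.

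Among G2 and mitosis members, Ccna2 was lowest in WT 2 at 262 CPM, with the next at 276 CPM and a gap share of 0.8015. Nusap1 was lowest in Emx2 KO 1 at 118 CPM, with the next at 127 CPM and a gap share of 0.7884. None of the 8 genes was among the 12 members that passed.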

How the results depend on the processing

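The main fit gave 4039 genes changed, 4 S phase members higher and 0 lower, and 6 G2 and mitosis members higher and 2 lower. Within the small libraries alone (2 against 3), 626 genes changed and 0, 0, 0 and 0 members passed in those 4 counts. Within title code 241022 alone (2 against 2), 530 genes changed and the member counts were again 0, 0, 0 and 0, with a G2 and mitosis median log2 fold change of 0.0904. Within title code 14922 alone, 1710 genes changed and the member counts were 1, 0, 1 and 0. These subsets hold fewer libraries. The GC and length correction gave 1 S phase and 3 G2 and mitosis members higher and 0 lower. Total counts and the large libraries alone each gave 1 S phase member lower, and total counts moved the S phase median to -0.0184. The fit with no filter on low counts and the fit with Y-linked expression as a covariate each gave 1 G2 and mitosis member lower.

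Leaving out 1 library at a time gave 3072 to 3979 genes changed, 2 to 4 S phase members higher, 0 lower, 4 to 6 G2 and mitosis members higher and 1 to 2 lower. Without WT replicate 3, 2 S phase members were higher. The G2 and mitosis count of lower members was 1, with Cenpe lost, without Emx2 KO replicates 1, 2, 3 or 4 or WT replicates 1 or 4. The medians ran from 0.01 to 0.04 for S phase and from -0.01 to 0.04 for G2 and mitosis, where -0.01 was without Emx2 KO replicate 2. For the genotype effect by title code, 917 genes passed with no filter on low counts against 322 with it. DESeq2, limma-voom, DESeq2 size factors in edgeR, the title code block and the fit without robust estimation gave the same member counts, 4, 0, 6 and 2. Beyond the fewer libraries in the subsets, the cause of lost calls was not tested.

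The members had at least 197 reads in each library. Counting error weighs more on the members with the fewest reads, Cdc45, Gins1 and Gins2, whose lowest counts were 197, 209 and 239. Its part in the spread between libraries was not measured. Intervals of members that did not pass reached up to 0.20 log2 units either side, so differences of that size were not detectable for the least precise of them. Replicate numbers follow the order of deposition and pair nothing. The title codes are shared between genotypes, and the fit with them as a block is given above.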
